A study of Mus musculus with 6 samples.

Results

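RNA levels of 10 genes, the 4 ID genes Id1, Id2, Id3 and Id4 and the BMP and TGF-beta feedback genes Smad6, Smad7, Smad9, Bambi, Skil and Atoh8, were followed in 6 libraries of cultured mouse spermatogonia. The 10 were taken from the table's 32285 genes by symbol, and they had been selected on earlier results of the same comparison of p57 KO with control. Their differences between the groups are therefore given as a description, with no p-value, and the calls that a fit over all genes makes on them are counted only beside the share of all genes called. The cells were GS cells, cultures of testis germ cells with the properties of spermatogonial stem cells. Every library came from cells homozygous for a floxed Cdkn1c, which encodes p57, an inhibitor of cyclin-dependent kinases. The p57 KO group (genotype label p57 flox/flox-Cre, 3 libraries) received Cre recombinase from an adenovirus, and the genotype label of the control group (p57 flox/flox, 3 libraries) names no Cre. RNA was taken 2 days after infection, from trypsinised cells passed over a Sephadex column. The growth and extraction protocols attached to the control samples are the same as those of p57 KO and speak of adenovirus Cre and of infection. Whether the controls received a virus therefore cannot be told from the sources used here, nor which part of the gene was deleted or how many animals or cultures lie behind the replicates. The source mice are given as 3 days old in the growth protocol and 10 days old in the design text, and their strain as BDF1 in the sample labels and as C57BL/6 and 129 in the design text.

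ID proteins are helix-loop-helix proteins without the basic region that binds DNA. They pair with E proteins, the common partners of tissue-specific basic helix-loop-helix (bHLH) factors, and keep them from DNA. In many cell types the ID genes are direct targets of BMP signalling: ligand-bound receptors phosphorylate SMAD1, SMAD5 and SMAD9, which enter the nucleus with SMAD4. The same signal, or the related TGF-beta signal through SMAD2 and SMAD3, also raises its own inhibitors, among them the inhibitory SMADs, the pseudoreceptor BAMBI and the co-repressor SKIL. In the testis, Id4 is known as a marker of the most stem-like undifferentiated spermatogonia.

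The shared part of the ID family is shown by its coding sequence, since the 4 genes did not move alike. Of all 40-codon stretches aligned without gaps in GENCODE M21, the one below, within the helix-loop-helix domain, had the most residues identical in all 4 proteins, 22 of 40. Capitals mark the 69 of 120 bases that are identical in the 4 genes; each line is read 5′ to 3′ on the coding strand.
Id1: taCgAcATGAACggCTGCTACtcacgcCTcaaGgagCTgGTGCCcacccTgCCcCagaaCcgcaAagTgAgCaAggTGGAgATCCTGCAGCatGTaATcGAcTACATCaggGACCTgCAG
Id2: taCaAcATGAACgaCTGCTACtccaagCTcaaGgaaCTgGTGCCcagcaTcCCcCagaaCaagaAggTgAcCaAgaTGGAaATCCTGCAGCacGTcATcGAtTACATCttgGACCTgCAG
Id3: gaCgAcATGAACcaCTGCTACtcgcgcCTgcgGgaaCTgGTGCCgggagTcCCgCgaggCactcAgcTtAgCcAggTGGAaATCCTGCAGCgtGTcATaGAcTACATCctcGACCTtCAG
Id4: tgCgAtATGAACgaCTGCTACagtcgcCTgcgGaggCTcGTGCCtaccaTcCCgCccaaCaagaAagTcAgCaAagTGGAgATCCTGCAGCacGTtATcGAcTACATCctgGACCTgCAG
The stretch covers codons 60 to 99 of 148 in Id1, 37 to 76 of 134 in Id2, 42 to 81 of 119 in Id3 and 66 to 105 of 161 in Id4. Over the aligned residues of the whole proteins, identity was lowest between Id1 and Id4 (42.0%) and highest between Id2 and Id4 (51.6%). The longest exact run shared by transcripts of any 2 of the 4 genes was 19 bases, between Id2 and Id3, and the reads were 76 bases long. The genes lie apart in mm10: Id1 on chromosome 2 (152736251 to 152737410, plus strand), Id2 on chromosome 12 (25093799 to 25097140, minus strand), Id3 on chromosome 4 (136143497 to 136145755, plus strand) and Id4 on chromosome 13 (48261228 to 48266026, plus strand). Id4 overlaps A330033J07Rik and Gm49291 on the other strand, which had 0 to 2 and 0 to 1 counts per library. Of the 10 genes, Bambi is the one with a pseudogene of its name in the annotation, and pseudogenes under other names were not searched for.

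Total counts lay between 15940375 and 17893671 in p57 KO libraries and between 15662833 and 16979459 in control libraries. Cdkn1c had 8.71, 9.44 and 8.51 CPM (counts scaled to a common library size with TMM factors) in p57 KO against 20.9, 21.4 and 19.9 CPM in control, so that the targeted RNA was lower in every p57 KO library but still present at 42.9% of the control mean (log2 fold change -1.22, SE 0.09, edgeR adjusted p = 4.07e-09). All 12 spermatogonia markers were detected, among them the general germ cell genes Ddx4 and Dazl and the stem cell receptor genes Gfra1 and Ret, and their summed level was 3760 to 3940 CPM in p57 KO against 4330 to 4380 CPM in control. The summed level of 20 fibroblast and feeder cell markers was 1440 to 2870 CPM in p57 KO against 917 to 1170 CPM in control. Its largest parts were Fn1 (569 to 1180 against 378 to 478 CPM) and Col5a1 (320 to 378 against 281 to 294 CPM). In such bulk RNA, fewer cells of a type and less RNA per cell cannot be told apart. The 5 markers of macrophages (15.9 to 19.0 against 12.1 to 13.3 CPM), the 5 of endothelial cells (74.8 to 78.2 against 82.3 to 86.3 CPM), the 6 of Sertoli cells (37.9 to 39.5 against 34.5 to 40.7 CPM) and the 5 of Leydig cells (3.14 to 3.29 against 2.94 to 3.88 CPM) summed to far less than either, and the Leydig gene Hsd3b1 was at 0 throughout. Most of the macrophage sum was Cd68 (15.1 to 18.1 against 11.7 to 13 CPM), and the other macrophage genes had 0 to 6 counts per library. The largest part of the endothelial sum was Kdr (54.3 to 57 against 62 to 66.3 CPM). Kdr and Cdh5 were lower in all p57 KO libraries and Tek was higher, while Pecam1 overlapped and Tie1 had 2 to 8 counts. The part of these marker levels in the results on the 10 genes was not tested.

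Levels per length differed widely among the 10 genes. In TPM, a level per length computed from the counts and the exon length of each gene, Id4 was the highest of them in control libraries, at 106, 113 and 110 TPM. Skil followed with 80.6 ± 0.133 TPM, Id3 with 75.9 ± 2.66, Smad7 with 63.7 ± 1.79, Smad6 with 38.3 ± 0.279, Id1 with 26.1 ± 3.89, Atoh8 with 11.1 ± 2.06, Bambi with 8.12 ± 0.733, Smad9 with 1.43 ± 0.162 and Id2 with 0.906 ± 0.571 TPM (control, SD, n = 3). In that order the control libraries of Smad9 (1.33 to 1.62 TPM) and Id2 (0.471 to 1.55 TPM) overlapped, and those of Atoh8 (8.97 to 13.1) and Bambi (7.60 to 8.96) came next to touching. In p57 KO libraries the first place was taken by Id3 with 101 ± 8.09 TPM, before Skil with 77.4 ± 3.17 and Id4 with 74.0 ± 4.25 TPM, of which the last pair overlapped. Id1 with 49.1 ± 8.13 TPM stood above Smad6 with 32.4 ± 1.53 TPM there, and Id2 with 3.83 ± 0.200 TPM above Smad9 with 1.26 ± 0.277 TPM. The rest were Smad7 with 60.7 ± 2.82 TPM, Bambi with 7.40 ± 0.461 TPM and Atoh8 with 6.31 ± 0.460 TPM. The top of the control order depends on the length used: with the longest coding transcript, Skil had 82.1, Id4 77.3 and Id3 75 TPM.

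**Figure D1:**
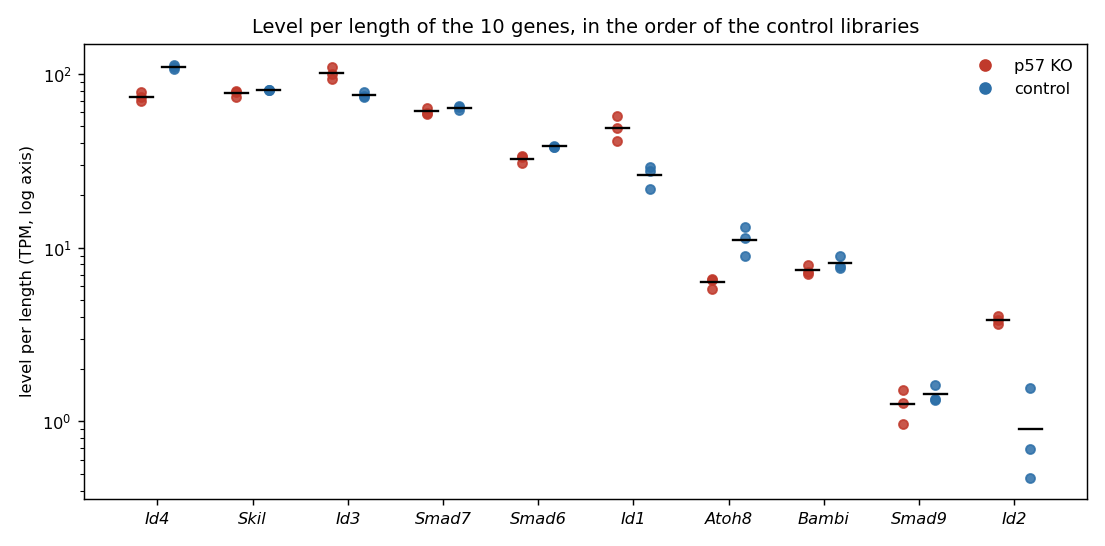
Level per length in TPM (log axis) of the 10 genes, ordered by their control mean, with 1 point per library, p57 KO in red and control in blue, and a black line at the mean of 3 libraries. Id4 leads in control at 110 TPM and Id3 in p57 KO at 101 TPM, while Id2 and Smad9 lie near 1 TPM in control.

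Among the ID genes, 3 were higher in p57 KO and 1 was lower. Id1, the classical immediate target of BMP receptors, had 12.9, 15.1 and 18 CPM in p57 KO against 6.67, 8.42 and 8.95 CPM in control. Every p57 KO library was above every control library, and the log2 fold change (p57 KO over control) was 0.94 (SE 0.13, 95% interval 0.66 to 1.22).

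Id2, which is widely expressed in somatic tissues, was scarce in these cells. It had 42, 39 and 45 counts in p57 KO against 5, 17 and 7 in control, or 2.65, 2.37 and 2.52 CPM against 0.303, 1 and 0.447 CPM. The p57 KO libraries lay close together and above all controls, among which replicate 2 was the highest. The log2 fold change was 2.08 (SE 0.32, 95% interval 1.41 to 2.75), and 2.72 (SE 0.36) without control replicate 2. In control 2.41% of the 14814 tested genes were below Id2, which passed the filter on low counts only through its p57 KO libraries.

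Id3, often co-regulated with Id1, had 48.2, 45.1 and 53.0 CPM in p57 KO against 35.4, 35.0 and 37.3 CPM in control. The groups did not overlap, and the log2 fold change was 0.44 (SE 0.06, 95% interval 0.32 to 0.57), less than that of Id1. Id4 went the other way, with 81.3, 76.6 and 72.4 CPM in p57 KO against 108, 115 and 111 CPM in control. All p57 KO libraries were below all controls, at 68.9% of the control mean, with a log2 fold change of -0.54 (SE 0.043, 95% interval -0.63 to -0.45).

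**Figure D2:**
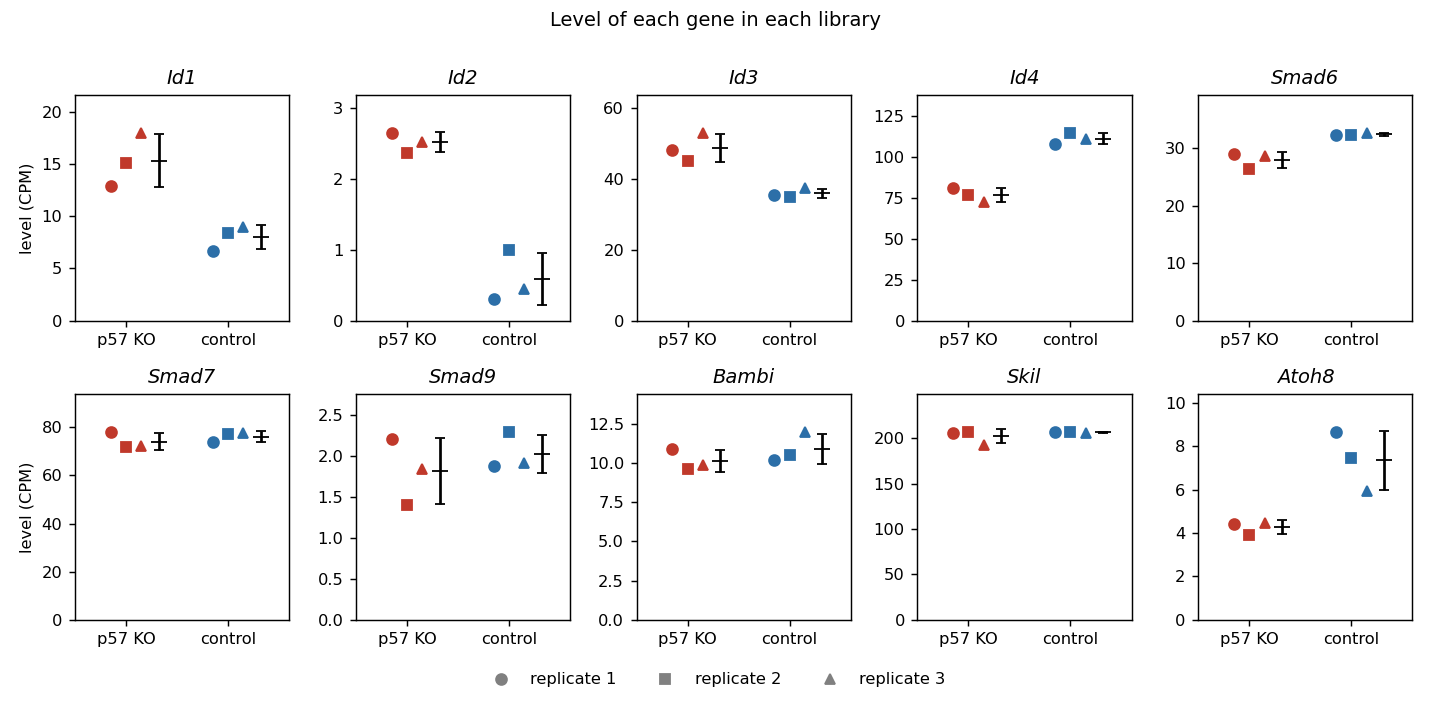
Level in CPM of each of the 10 genes in each library (linear axes from 0), p57 KO in red to the left and control in blue to the right, with a bar for the mean ± SD of 3 libraries. Id1, Id2 and Id3 are higher and Id4, Smad6 and Atoh8 lower in all p57 KO libraries, while the groups overlap for Smad7, Smad9, Bambi and Skil.

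The make-up of ID RNA differed accordingly. The TPM of the 4 genes summed to 223, 220 and 241 in p57 KO and to 203, 216 and 218 in control, so that every p57 KO library was above every control library by a small margin. Id4 made up 35.1%, 33.7% and 29.0% of that sum in p57 KO against 52.1%, 52.4% and 50.2% in control. Id1 made up 21.5 ± 2.73% in p57 KO and 12.3 ± 1.37% in control (SD, n = 3 each). For Id3 the share was 44.3 ± 1.5% against 35.7 ± 1.41%, and for Id2 1.68 ± 0.109% against 0.423 ± 0.259%. On this scale Id4 was the most abundant ID gene in every control library and Id3 in every p57 KO library. With the longest coding transcript as length, the share of Id4 was 27.6 ± 2.78% in p57 KO and 45.1 ± 1.15% in control, and that of Id3 52.5 ± 1.51% in p57 KO and 43.7 ± 1.53% in control, so that Id3 and Id4 were closer to each other in control.

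**Figure D3:**
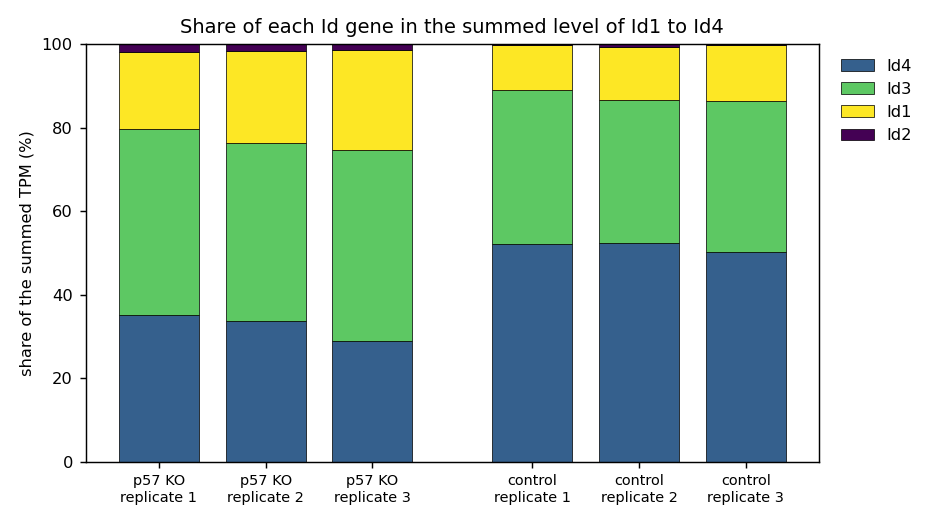
Share (%) of Id1, Id2, Id3 and Id4 in their summed TPM, 1 stacked bar per library, p57 KO libraries on the left and control libraries on the right. The lowest segment, Id4, reaches 29.0% to 35.1% in p57 KO and 50.2% to 52.4% in control.

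The inhibitory SMADs did not move alike. Smad6, whose product mainly restrains BMP receptors and SMAD1 (chromosome 9, 63953076 to 64022059, minus strand), had 29.0, 26.4 and 28.6 CPM in p57 KO against 32.3, 32.3 and 32.7 CPM in control. All p57 KO libraries were below the controls, by a small amount: the log2 fold change was -0.21 (SE 0.061, 95% interval -0.34 to -0.085). Smad7, whose product restrains both BMP and TGF-beta receptors (chromosome 18, 75367529 to 75395935, plus strand), had 78.1, 71.7 and 72.1 CPM in p57 KO against 73.7, 77.0 and 77.7 CPM in control. Its groups overlapped, and the log2 fold change of -0.042 had a 95% interval of -0.13 to 0.048.

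Bambi (chromosome 18, 3507923 to 3516404, plus strand) encodes a receptor-like membrane protein without a kinase domain, which interferes with BMP and TGF-beta receptors. It had 10.9, 9.62 and 9.86 CPM in p57 KO against 10.2, 10.5 and 12 CPM in control, and the groups overlapped. Its log2 fold change was -0.11 (SE 0.11, 95% interval -0.33 to 0.12). Skil, which encodes the SMAD co-repressor SnoN (chromosome 3, 31095058 to 31122577, plus strand), was the best expressed of the 10 in counts. It had 206, 207 and 193 CPM in p57 KO against 207, 207 and 206 CPM in control. Here p57 KO replicate 3 was the lowest library, the others were close to equal, and the log2 fold change was -0.032 (SE 0.032, 95% interval -0.097 to 0.033).

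Smad9, the least abundant of the receptor-activated BMP SMADs here in counts (chromosome 3, 54755582 to 54801257, plus strand), had 2.21, 1.40 and 1.85 CPM in p57 KO against 1.88, 2.30 and 1.92 CPM in control. With 23 to 39 counts per library its 95% interval was wide, -0.66 to 0.34 around a log2 fold change of -0.16. Atoh8, a bHLH gene known as a BMP and SMAD target in endothelial cells (chromosome 6, 72206177 to 72235577, minus strand), had 4.42, 3.90 and 4.48 CPM in p57 KO against 8.67, 7.47 and 5.94 CPM in control. The p57 KO libraries lay together at 57.9% of the control mean and below all controls, whose own spread was larger. The log2 fold change was -0.79 (SE 0.16, 95% interval -1.11 to -0.47).

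In the fit over all tested genes (edgeR's quasi-likelihood test, Benjamini-Hochberg adjusted p under 0.05), Id1, Id2 and Id3 were called higher, Id4, Smad6 and Atoh8 lower, and 4 of the 10 were not called. Of all tested genes 11.6% were called higher and 11.6% lower. The same 3 and 3 genes had groups that did not overlap, against 19.5% of all tested genes with p57 KO higher and 19.7% with p57 KO lower. Since the members had been chosen with this comparison known, nothing is read from these counts. All 10 passed the filter on low counts, but Id2 did so only through its p57 KO libraries. Its control counts of 5, 17 and 7 alone would not have passed, and its call carries that limit. The call of Smad6 was lost without p57 KO replicate 2, without control replicate 3, in DESeq2 and against a fold of 1.2. In a fit with the fibroblast score, the mean log2 CPM of 20 fibroblast and feeder cell markers, the calls of Id1, Id3, Smad6 and Atoh8 were lost. Most calls over all tested genes were lost there too: 227 were higher and 150 lower, against 1725 and 1725 without the score.

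Fibroblast and feeder cell markers moved with the same comparison, and Id1, Id2 and Id3 are also known to be expressed in fibroblasts. Of the 20 markers, 18 had all p57 KO libraries above all controls, and 5 were called higher. Their summed level was 1440, 1940 and 2870 CPM in p57 KO replicates 1, 2 and 3 against 917, 1170 and 944 CPM in control replicates 1, 2 and 3. Within p57 KO, Id1 had the same order of libraries as this sum, and Id2 and Id3 did not. Within control, Id2 had the order of the sum, and Id1 and Id3 did not. With 3 libraries per group such a match easily arises by chance, so nothing is read from these orders. In the fit that also held the fibroblast score, the log2 fold change was 0.44 (SE 0.20) for Id1, 1.88 (SE 0.53) for Id2, 0.35 (SE 0.11) for Id3, -0.45 (SE 0.078) for Id4, -0.19 (SE 0.12) for Smad6 and -0.81 (SE 0.29) for Atoh8. The score, set to 0 at the control mean, was 0.69 to 1.86 in p57 KO libraries against -0.19 to 0.36 in control libraries, so this fit cannot tell the score and the group apart. Part of the spermatogonia markers moved with the comparison as well: 7 of the 12 were called lower and 1, Itga6, higher. Ddx4, Lin28a, Uchl1 and Cd9 were not called. The largest part of their sum was Dazl, called lower (905 to 965 CPM in p57 KO against 1070 to 1160 CPM in control). All 12 summed to 3940, 3830 and 3760 CPM in p57 KO replicates 1, 2 and 3 against 4330, 4380 and 4370 CPM in control replicates 1, 2 and 3. Id4 had the same order of libraries as this sum within each group. The control sums lay close together, and with 3 libraries per group such a match easily arises by chance. The part of these markers in the difference of Id4 was not tested.

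The genes most like each ID gene were sought among 12824 named genes of at least 1 CPM, by the root mean square difference in log2 CPM over the 6 libraries after each gene's mean was removed. Nearest to Id1 were Ebf3 (0.073), Arl8a (0.082) and Ano3 (0.085). Nearest to Id2 were Rnf225 (0.225), Pcdh17 (0.265) and the stress-induced factor gene Atf3 (0.305), at larger distances. Among the nearest to Id3 were Tmem63b (0.033) and the laminin chain gene Lama5 (0.038). Nearest to Id4 were Lrrc61 (0.041), Bmt2 (0.043) and Fst (0.044), the last of which encodes follistatin, a secreted inhibitor of activins and some BMPs. The distance takes in the difference between the groups, with which the members had been selected, so near genes have a similar fold change. On the log2 scale it was 0.87 to 0.98 for those near Id1 and 2.12 to 2.66 near Id2. It was 0.45 and 0.41 for the 2 genes near Id3 and -0.56 to -0.48 near Id4. Shared regulation was not tested.

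Around these genes, 102 other genes of BMP and TGF-beta signalling in 7 lists were examined, of which 77 could be tested. In p57 KO 13 rose (16.9% of those tested) and 10 fell (13.0%), against 11.6% and 11.6% of all tested genes. The median log2 fold change was 0.11, against -0.0019 over all tested genes. Without p57 KO replicate 1, 29 were called higher, and 2136 of all 15087 genes then tested, against 1725 of 14814 with all libraries. In the fit with the fibroblast score 2 rose and 2 fell, against 227 and 150 of all 14814 tested genes. Those that rose were Eng (0.60, SE 0.095, edgeR adjusted p = 5.45e-05) and Rasl11b (1.26, SE 0.29, adjusted p = 0.00735). Those that fell were Fst (-0.35, SE 0.080, edgeR adjusted p = 0.00769) and Tgfbr1 (-0.43, SE 0.11, adjusted p = 0.0151).

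Of 16 BMP ligands, 7 were tested, 1 rose and 2 fell. Bmp2 had 1.83, 3.17 and 4.37 CPM in p57 KO against 0.607, 1.41 and 0.575 CPM in control (log2 fold change 1.84, SE 0.40, edgeR adjusted p = 0.00661). The groups did not overlap, at low levels. With 10, 24 and 9 counts in control, Bmp2 passed the filter on low counts only through its p57 KO libraries, and its call carries that limit. Bmp6 fell to 14.3 ± 1.45 CPM in p57 KO, against 18.2 ± 0.740 CPM in control (log2 fold change -0.35, edgeR adjusted p = 0.00624), and Gdf10, a BMP3-related ligand, fell by 0.97 on the log2 scale (edgeR adjusted p = 0.00452). Of 15 TGF-beta and activin ligands, 7 were tested and 2 rose: Tgfb3 (1.02, edgeR adjusted p = 0.00391) and Gdf11 (0.37, adjusted p = 0.0178). Gdf11 lost its call without p57 KO replicate 3 (adjusted p = 0.135), without control replicate 1 (0.0818) or without control replicate 2 (0.057), and in DESeq2 (0.0882). With the fibroblast score in the fit none of these 5 ligands was called in edgeR: the log2 fold change was 0.26 for Bmp2 (adjusted p = 0.883), -0.12 for Bmp6 (0.835), -0.28 for Gdf10 (0.856), 0.12 for Tgfb3 (0.935) and 0.0062 for Gdf11 (0.996). Tgfb1, the most abundant ligand in these lists, had 94.7, 99.7 and 98 CPM in p57 KO against 95.5, 104 and 113 CPM in control and was not called.

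Of 18 receptor and co-receptor genes 15 were tested, 1 rose and 3 fell. Eng encodes endoglin, a co-receptor for TGF-beta and BMP9. It had 64.6, 59.4 and 62.6 CPM in p57 KO against 40.6, 41.8 and 45.3 CPM in control, with no overlap (log2 fold change 0.55, SE 0.052, edgeR adjusted p = 1.72e-07). The activin receptor genes Acvr2b (-0.21, edgeR adjusted p = 0.00918) and Acvr1b (-0.17, 0.0135) and the TGF-beta type I receptor gene Tgfbr1 (-0.26, 0.0207) fell. Their calls were lost, with adjusted p from 0.0507 to 0.0744, without p57 KO replicate 3 (Acvr2b and Tgfbr1), p57 KO replicate 1 (Tgfbr1), p57 KO replicate 2 or control replicate 1 (both Acvr1b), and Acvr1b was not called in DESeq2 (0.0733). With the fibroblast score Acvr2b had 0.0026 (edgeR adjusted p = 0.997) and Acvr1b -0.13 (0.61). Bmpr1a, the most abundant BMP type I receptor gene here in counts, had 126, 126 and 124 CPM in p57 KO against 126, 137 and 129 CPM in control and was not called although its groups just did not overlap (log2 fold change -0.061, edgeR adjusted p = 0.229).

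Among the SMAD genes that carry the signal, the called changes were small. Smad4, the common partner of both branches, fell to 70.7 ± 0.437 CPM in p57 KO, against 79.3 ± 0.949 CPM in control (SD, n = 3 each; log2 fold change -0.17, edgeR adjusted p = 0.00326). Smad3, of the TGF-beta branch, rose to 55.3 ± 2.02 CPM in p57 KO, against 48.6 ± 1.03 CPM in control (0.19, edgeR adjusted p = 0.00701; 0.0573 in DESeq2). Smad1, Smad2 and Smad5 were not called, with log2 fold changes of -0.20, -0.030 and -0.095. Of these, Smad1 had the smallest adjusted p, 0.0512 in edgeR. With the fibroblast score neither Smad4 (-0.19, edgeR adjusted p = 0.246) nor Smad3 (0.11, 0.687) was called.

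Of 16 extracellular antagonists 13 were tested, 1 rose and 1 fell. Fst had 67.8, 65.4 and 61.2 CPM in p57 KO against 88.8, 89.6 and 92.9 CPM in control (log2 fold change -0.48, SE 0.043, edgeR adjusted p = 8.1e-08), and the groups lay far apart compared with their spread. Nbl1 (0.80, edgeR adjusted p = 0.0236) lost its call in each of 4 fits that left out 1 library: p57 KO replicate 2 (adjusted p = 0.0896) or control replicate 1 (0.13), 2 (0.0533) or 3 (0.128), and in limma-voom (0.083). Of 16 intracellular regulators, all tested, Zeb1 (0.29, edgeR adjusted p = 0.0029) and Zeb2 (0.92, 0.015) rose and the SMAD co-repressor genes Tgif2 (-0.19, 0.00052) and Ski (-0.11, 0.00825) fell. Zeb2 lost its call without p57 KO replicate 2 (adjusted p = 0.0514), control replicate 1 (0.0797) or control replicate 2 (0.0744), and Ski without p57 KO replicate 2 (0.0537). Once the fibroblast score was in the fit, the sign turned for Nbl1 (-0.15, edgeR adjusted p = 0.86) and Zeb2 (-0.077, 0.96), and Zeb1 (0.024, 0.957), Tgif2 (-0.17, 0.255) and Ski (-0.04, 0.807) were not called. Against a fold of 1.2 none of these 5 genes was called in edgeR, and Fst was.

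Of 16 other BMP or TGF-beta targets 14 were tested, 5 rose and 1 fell. The homeobox genes Msx1 and Msx2, known BMP targets in embryonic tissues, parted: Msx1 had 3.16, 3.59 and 3.92 CPM in p57 KO against 1.09, 1.47 and 1.41 CPM in control (log2 fold change 1.42, SE 0.22, edgeR adjusted p = 7e-05). Msx2 had 25.6, 29.6 and 23.9 CPM in p57 KO against 34.4, 32.6 and 36.0 CPM in control (-0.38, SE 0.073, edgeR adjusted p = 0.000696). Neither pair of groups overlapped. With the fibroblast score Msx1 (1.05, edgeR adjusted p = 0.163) and Msx2 (-0.24, 0.422) were not called. Rasl11b, which encodes a small GTPase of the Ras family, rose as well (1.21, SE 0.17, edgeR adjusted p = 4.28e-05).

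**Figure D4:**
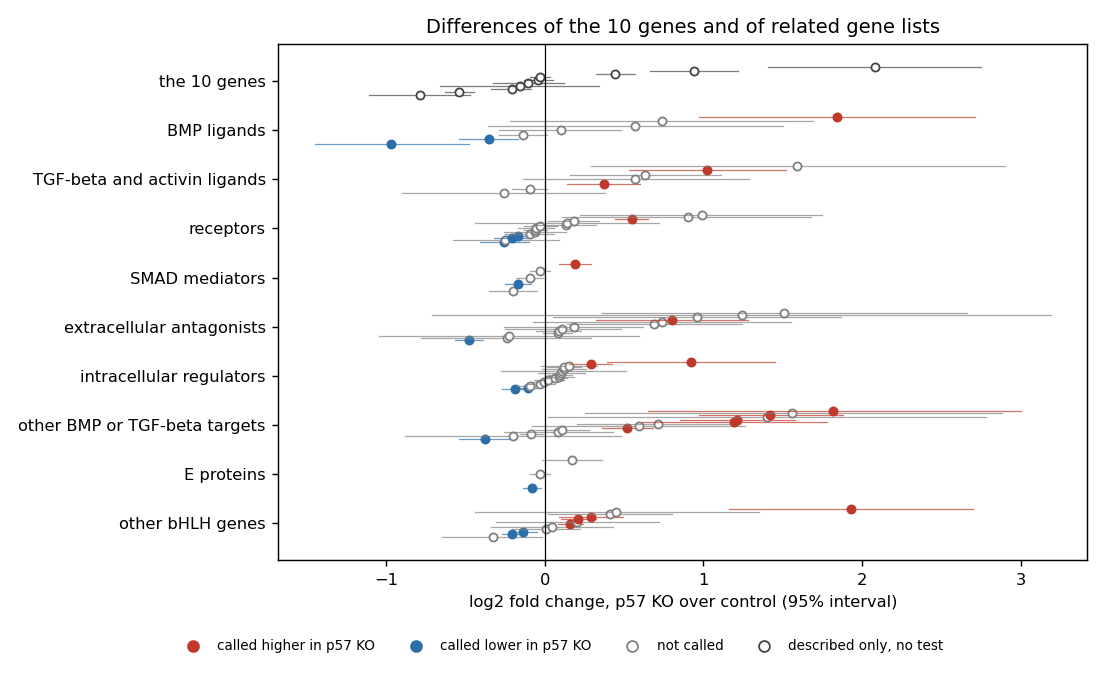
Log2 fold change, p57 KO over control, with its 95% interval for the 10 genes (open dark points, described without a test) and for the tested genes of 9 related lists, red where called higher, blue where called lower and grey where not called. The 10 genes run from -0.79 (Atoh8) to 2.08 (Id2).

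The E protein genes, whose products are the partners of ID proteins, differed little. Tcf3 had 417, 401 and 397 CPM in p57 KO against 429, 420 and 435 CPM in control (log2 fold change -0.080, SE 0.028, edgeR adjusted p = 0.0411). Its call was lost without p57 KO replicate 2 (adjusted p = 0.118), p57 KO replicate 3 (0.153), control replicate 1 (0.0975) or control replicate 3 (0.141), and with the fibroblast score its sign turned (0.0031, edgeR adjusted p = 0.99). Tcf12 (-0.029) and Tcf4 (0.17) were not called. Of 18 other bHLH genes 12 were tested, 4 rose and 2 fell; in the edgeR fit with the fibroblast score none of the 15 bHLH genes was called, and 2 were higher and 1 lower at an unadjusted p under 0.05. Sohlh2, a bHLH gene needed for spermatogonial differentiation, fell to 269 ± 10.1 CPM in p57 KO, against 311 ± 7.91 CPM in control (SD, n = 3 each; log2 fold change -0.21, edgeR adjusted p = 4.14e-05). Its partner gene Sohlh1 rose by 0.21 on the log2 scale (edgeR adjusted p = 0.00664; 0.0675 without control replicate 3), and Hes1, a Notch target, by 0.16 (0.00289). Twist2, a mesenchymal gene, rose by 1.93 (edgeR adjusted p = 0.000729) at levels of 1.2 to 2.91 CPM in p57 KO against 0.353 to 0.767 CPM in control. With 9, 6 and 12 counts in control, Twist2 passed the filter on low counts only through its p57 KO libraries, and its call carries that limit.

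Promoter sequence was available for 6 of the 10 genes, and is shown for Id4 and Atoh8, the members lower in p57 KO by the largest amounts, as the 250 bases before the RefSeq start of each gene (GRCm38.p6), 5′ to 3′ on the gene's strand. Capitals mark GGCGCC, a GC-rich motif bound by BMP SMADs, and CANNTG, the E-box bound by bHLH dimers. Both motifs read the same on both strands, and they do not overlap each other here.
Id4, chr13:48260866-48261115, plus strand: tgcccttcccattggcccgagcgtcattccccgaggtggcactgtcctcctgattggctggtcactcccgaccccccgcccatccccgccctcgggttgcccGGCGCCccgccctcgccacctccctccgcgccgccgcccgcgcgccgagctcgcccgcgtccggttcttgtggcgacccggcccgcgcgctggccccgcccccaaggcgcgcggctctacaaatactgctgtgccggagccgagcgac
Atoh8, chr6:72235578-72235827, minus strand: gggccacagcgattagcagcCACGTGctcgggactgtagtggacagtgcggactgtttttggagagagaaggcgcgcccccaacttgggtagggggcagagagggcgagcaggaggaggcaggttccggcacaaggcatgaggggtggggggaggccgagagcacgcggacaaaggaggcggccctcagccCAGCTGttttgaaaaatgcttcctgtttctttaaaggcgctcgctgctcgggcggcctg
The Id4 window holds GGCGCC at 148 bases before the start and no E-box, and the Atoh8 window holds 2 E-boxes and no GGCGCC. Of 27025 promoter windows of this length, 9.54% hold GGCGCC and 66.0% an E-box. In the windows of the other 4 genes, GGCGCC occurs in those of Id2 and Smad9 and not in those of Id3 and Smad6, and the same holds for the E-box. The motif GTCT, on either strand, was searched for as well and is not marked. It occurs in the windows of these 4 genes, in neither that of Id4 nor that of Atoh8, and in 83.0% of all windows. Of the 6 windows, that of Id3 lies wholly (250 bases) and that of Id2 in part (161 bases) within exons of GENCODE M21, and the other 4 hold no exon bases. GC content was 75.6% for Id4 and 63.2% for Atoh8, against a median of 52.0% over all windows.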

How the data were processed

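The deposited table holds raw counts per gene, 1 column per library, not normalized by the authors. Per the submitters' processing notes, HISAT2 2.2.1, HTSeq 2.0.2, cutadapt 3.4 and bcl2fastq 2.20 were used with mm10, the annotation, strand setting and treatment of multiply mapped reads being not given in the sources used here. Tests used edgeR 4.0.16 (quasi-likelihood F-test, TMM, filterByExpr, robust dispersions, group as the only term) in R 4.3.3, with Benjamini-Hochberg adjustment over 14814 tested genes. SE is the absolute log2 fold change over the square root of F. The script was tested on simulated data.

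TPM used GENCODE M21 exon lengths (32235 of 32285 identifiers matched). Members, lists and the naming rule (every member; up to 4 called genes of smallest p per list, otherwise the most abundant tested gene; 3 nearest genes per ID gene) were chosen with earlier results of these data known. Bmpr1a, Tgfb1, Tcf4, Tcf12, Smad1, Smad2 and Smad5 were added after their values were seen, and some genes that the rule names are not reported here. Alternatives were RLE factors, DESeq2 1.42.0, limma-voom (limma 3.58.1), other filters, the replicate block, leaving out each library, a test against a fold of 1.2, the fibroblast score, and another gene length. Replicates of a group differed by more than sampling noise (chi-square per degree of freedom 1.69 to 5.97). Nothing says that they were separate cultures, so p-values cover only the spread among these libraries, perhaps a technical one.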

Additional observations from a re-analysis of the deposited data

How the results depend on the processing

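The log2 differences of the 10 genes moved by less than the spread between replicates with RLE factors, DESeq2, limma-voom, either other filter and the replicate block, and in leaving out single libraries except for Id2, which ranged from 1.77 to 2.72. With the fibroblast score in the fit, Id1 had 0.44, Id3 0.35, Id4 -0.45, Smad7 0.043, Bambi 0.054 and Skil 0.047, and 1 member was called higher (Id2) and 1 lower (Id4); the cause was not tested. Of the signalling genes 21 rose with no filter on low counts, 2 rose and 2 fell with the fibroblast score, 7 rose and 2 fell against a fold of 1.2, and 9 to 29 rose on leaving out 1 library. Of the bHLH genes 0 rose and 0 fell with the score in edgeR (2 and 1 at an unadjusted p under 0.05), 1 rose and 0 fell against a fold of 1.2 (1 and 0 unadjusted), 4 rose and 3 fell in limma-voom, 3 rose and 3 fell in DESeq2, and 2 to 5 rose and 1 to 4 fell on leaving out 1 library. The score turned Acvr2b to 0.0026, Nbl1 to -0.15, Zeb2 to -0.077 and Tcf3 to 0.0031, none of them called. Over all tested genes, 227 rose and 150 fell with the score, 414 rose and 55 fell against a fold of 1.2, and 1347 rose and 1101 fell in DESeq2. With the longest coding transcript, control levels in TPM changed for all 10 genes, and for 8 of them (Id2 and Id3 are the exceptions) by more than 1 SD of the control libraries. Between same-numbered libraries, the deviations from the group means had r = 0.191, 0.025 and -0.102 over genes. The largest r was 0.273, between p57 KO replicate 3 and control replicate 2. From 3 libraries per group it cannot be told whether the numbers pair the libraries. With the replicate block, 1934 of all tested genes rose and 1772 fell, against 1725 and 1725 without it, and 19 signalling genes rose and 11 fell. Depth limited Id2 and Smad9, with 5 to 45 and 23 to 39 counts per library.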
